A study of Mus musculus with 8 samples.

Results

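Rab GTPases are small proteins that sit on the membranes of transport vesicles and organelles and mark each compartment for its traffic. Their transcripts were compared between pancreatic islets of knock-out mice and of wild type mice. The Rab group was taken as every probe set, on either of 2 Affymetrix mouse array types, MG-U74A and MG-U74B, whose single annotated gene symbol was Rab followed by a number and at most a letter and a digit. Rab3a, Rab3d and Rab27a, the best known Rabs of regulated exocytosis, were left aside by that rule. It gave 48 of 13675 genes named by a single symbol, read by 75 of 24965 probe sets. Of these, 41 were on MG-U74A for 31 genes and 34 on MG-U74B for 25 genes, with 8 genes on both types. The rule uses no measured value.

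Total RNA had been taken from knock-out islets and from wild type islets, with 2 replicates of each genotype on each array type and 8 arrays in all. The study calls the replicates biological, and the labels do not state age, sex, strain, allele, treatment or whether islets of several mice were pooled. The genotypes rest on the labels. In knock-out islets Ins2, an insulin gene, had an intensity of 29623 and 26557 on the MG-U74A arrays, against 33667 and 34052 in wild type islets, so both genotypes carried the defining marker of the labelled tissue.

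A Rab cycles between a GDP-bound form held in the cytosol and a GTP-bound form on a membrane. Guanine nucleotide exchange factors (GEFs) switch it on, GTPase activating proteins (GAPs) switch it off, GDP dissociation inhibitors and prenylation factors carry it between membrane and cytosol, and effectors such as tethers, motors and docking proteins bind the active form. In the endocrine cells of the islet this system serves the path of hormone from the endoplasmic reticulum (ER) through the Golgi into secretory granules, and the retrieval and breakdown of granule membrane through endosomes and lysosomes.

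The values are linear intensities, 1 per probe set, and changes are log2 differences, knock-out minus wild type, with their standard error from limma, computed after adding a constant of 25 intensity units. A probe set was tested where its mean over the 4 arrays of its type reached 62.5, and rose or fell where its limma p, adjusted over the whole array type, was under 0.05. The median of an MG-U74A array was 104 to 107 and that of an MG-U74B array 137.5 to 144. With 2 arrays against 2 an exact permutation test of a single probe set cannot give a p below 0.333, so the limma values rest on pooling the spread over probe sets, and they measure only the spread between these arrays.

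The 2 genotypes also differed in the markers of several cell types, measured on MG-U74A. All 11 tested beta and endocrine cell markers were lower in knock-out islets, with a summed intensity of 86691 to 94931 per knock-out array and 141600 to 142200 per wild type array. All 7 tested acinar markers were lower, with sums of 4967 to 5562 in knock-out islets and 39218 to 39528 in wild type islets. Of 6 tested duct markers, 1 was higher and 3 were lower. Of 8 tested lymphocyte markers 6 were higher and none was lower, with sums of 21025 to 22088 in knock-out islets and 5292 to 5295 in wild type islets. Cd3e was at or below 0 on both knock-out arrays, and Cd2, Cd3e and Cd79a on both wild type arrays. All 13 tested macrophage and dendritic cell markers were higher, with sums of 17570 to 17800 in knock-out islets and 5719 to 5914 in wild type islets, where Fcer1g and Itgam were at or below 0. Of 15 fibroblast and stellate cell markers 11 were higher and 2 lower, with sums of 21134 to 22165 in knock-out islets and 7143 to 7162 in wild type islets, where Acta2 was at or below 0. Of 10 endothelial markers 6 were higher and 1 was lower, with sums of 5532 to 5740 in knock-out islets and 4722 to 4797 in wild type islets, where Vwf was at or below 0. Of the tested markers, Slc2a2 and Clps reached the filter only through the wild type arrays. Cd3d, Cd79a, Ptprc, Acta2, Thy1 and Icam2 reached it only through the knock-out arrays. The counts above include these genes, and their calls are no support for a difference. For Gapdh the control probe set of the 3′ end over that of the 5′ end gave 0.949 and 0.937 on the knock-out arrays and 3.15 and 3.22 on the wild type arrays of MG-U74A, and 0.900 and 0.914 in knock-out islets against 3.07 and 3.12 in wild type islets on MG-U74B. For beta-actin this ratio differed less, at 1.16 and 1.12 on the knock-out arrays and 1.47 and 1.45 on the wild type arrays of MG-U74A, and at 1.18 and 1.13 on the knock-out arrays and 1.45 and 1.48 on the wild type arrays of MG-U74B. These markers and these ratios moved with the genotype and so with every Rab change below, and their part in the Rab changes was not tested. In such bulk RNA, fewer cells of a type and less RNA per cell cannot be told apart.

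On MG-U74A most called Rab transcripts were lower in knock-out islets. Of 31 tested Rab probe sets 17 fell, which is 54.8% beside 29.0% of all 7516 tested probe sets, and 4 rose, which is 12.9% beside 23.9% of all. Taken in either direction, 21 of the 31 passed beside 52.9% of all, and 10 did not. The tested Rab probe sets were brighter, with a median mean intensity of 514 beside 266 for all tested probe sets. The shares were not matched for intensity, and its part in them was not tested. At least 1 log2 unit was reached by 1 of the rises, beside 10.9% of all, and by 4 of the falls, beside 10.3% of all. The median log2 change of the tested Rab probe sets was -0.50, with a range of -1.49 to 1.61, beside a median of -0.09 for all tested probe sets. Taking the probe set with the highest mean for each of 24 genes, 15 genes fell, 3 rose and 6 did not pass. The genes counted as fallen include Rab7 and Rab6a. The other tested probe set of Rab7 rose, and that of Rab6a did not pass. Both knock-out arrays lay outside the range of both wild type arrays for 27 of the 31, below it for 22 and above it for 5, where 79.1% of all tested probe sets were separated in either direction. With each array left out in turn between 11 and 20 Rab probe sets fell and between 2 and 5 rose, and 11 of the 17 that fell and 2 of the 4 that rose passed in all 4 of these fits.

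MG-U74B gave few calls and a mixed picture. Of 25 tested Rab probe sets 4 rose, 16.0% beside 8.59% of all 7861 tested probe sets, and 1 fell, 4% beside 8.87% of all, while 20 did not pass. Rab17, 1 of the 4, reached the filter only through the knock-out arrays where it is high, so it had to differ. Rab22a 116445_at had a mean of 152 in wild type islets and of 42.9, under the filter level, in knock-out islets. Its arrays overlapped and it did not pass. Without these 2 probe sets 3 of 23 rose (13.0%) and 1 fell, and the shares over all probe sets were not reduced in the same way. In either direction 17.5% of all probe sets passed. At least 1 log2 unit was reached by 3 of the rises, 2 without Rab17, beside 5.75% of all, and by the 1 fall, beside 6.51% of all. Their median log2 change was 0.08, with a range of -2.20 to 4.13, beside a median of 0.11 for all tested probe sets. By gene, 4 of 19 rose, 1 fell and 14 did not pass. Arrays of the 2 genotypes were separated for 16 of the 25, with knock-out above in 9 and below in 7, beside 65.0% of all tested probe sets. None of the 5 calls held in all fits with an array left out: without wild type replicate 1 or wild type replicate 2 no probe set of the whole array type passed in limma, where 1124 and 1094 had an unadjusted p under 0.05 with a rise and 749 and 723 with a fall, 5 and 4 of the rises and 1 and 2 of the falls being Rab probe sets.

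**Figure D1:**
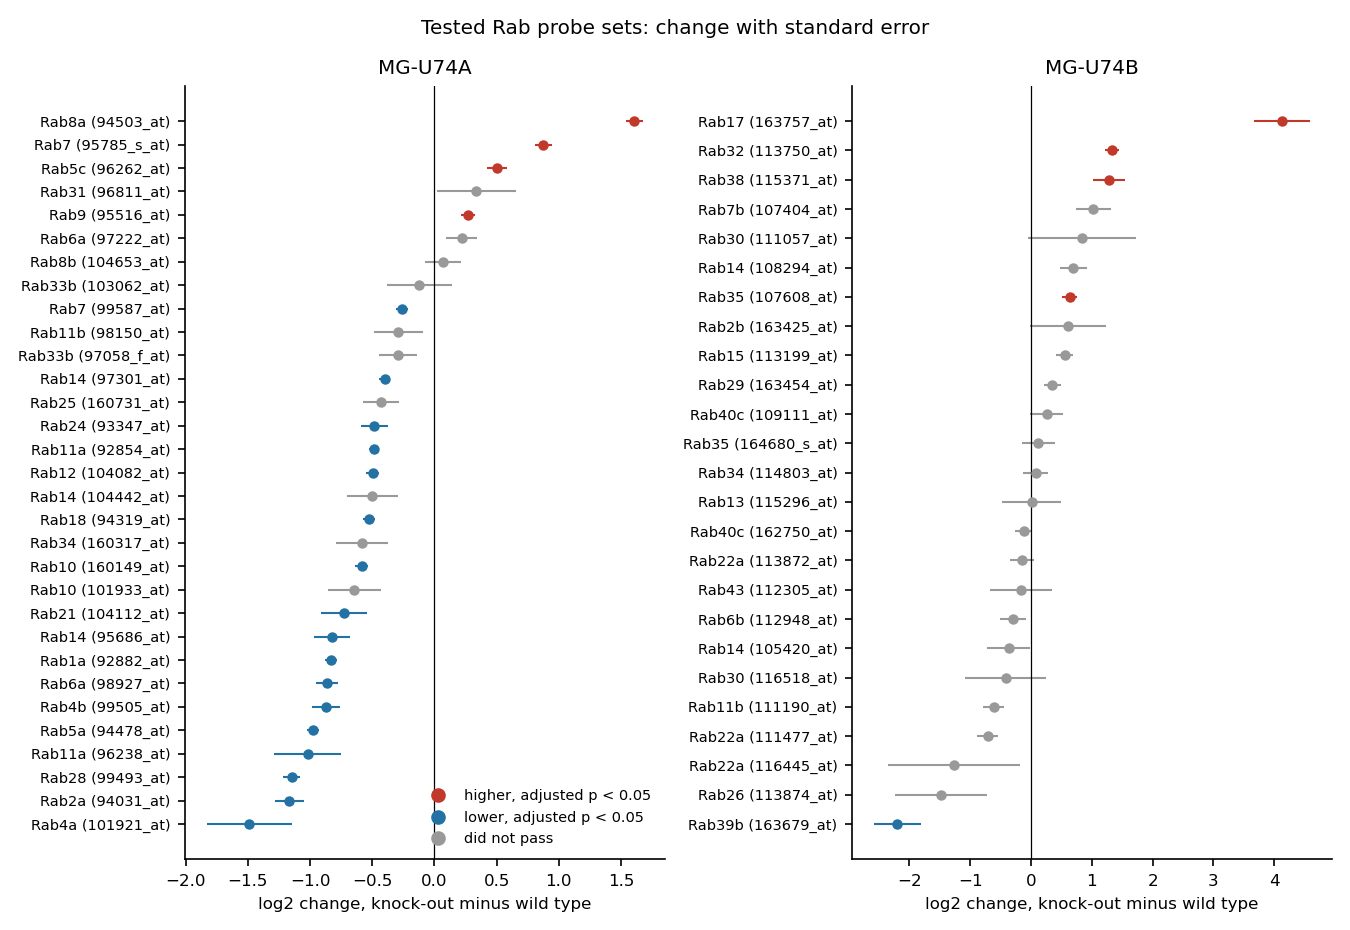
Log2 change of each tested Rab probe set, knock-out minus wild type, with its standard error, on MG-U74A (left, 31 probe sets) and MG-U74B (right, 25 probe sets). Red points rose, blue points fell and grey points did not pass. On MG-U74A 17 points are blue and 4 are red, and on MG-U74B 1 is blue and 4 are red.

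**Figure D2:**
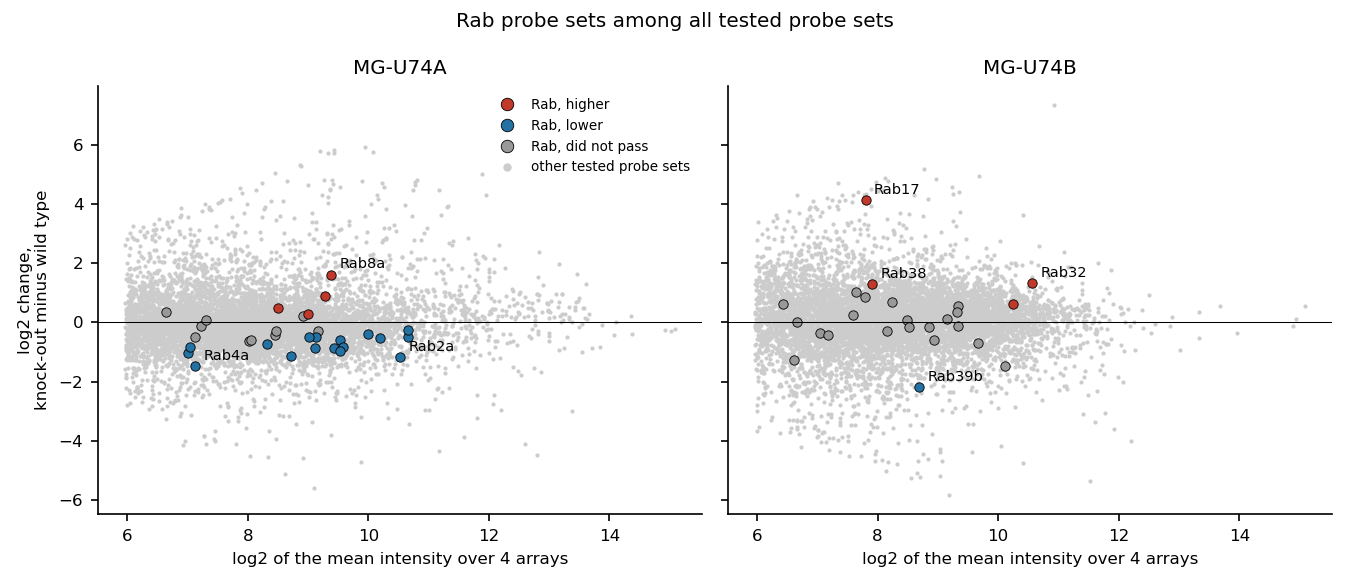
Log2 change, knock-out minus wild type, against log2 of the mean intensity over 4 arrays, for all tested probe sets (light grey) with the Rab probe sets drawn over them. The Rab points lie within the cloud of the other probe sets. The highest are Rab8a at 1.61 on MG-U74A and Rab17 at 4.13 on MG-U74B, a value that depends on the constant added. The lowest are Rab4a at -1.49 and Rab39b at -2.20. The Rab4a value also depends on the constant, and was -1.65 with 5% of the trimmed mean added and -1.25 with 20%.

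The filter on low values left 10 Rab probe sets of MG-U74A and 9 of MG-U74B untested, with intensities of -312 to 104 and of -459 to 203. Of these, 7 and 9 had at least 1 array at or below 0, and 2 and 5 had all 4 arrays there. For 8 genes no probe set was tested: Rab3b, Rab3c and Rab27b, relatives of the granule Rabs left aside above, Rab5b of the early endosome, Rab20, Rab23, a ciliary Rab that restrains Hedgehog signalling, Rab33a and Rab40b. The remaining 40 genes had at least 1 tested probe set. No tested Rab probe set of MG-U74A passed the filter through 1 genotype alone.

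The proximal promoters of 5 members are printed because Rab8a, Rab17 and Rab39b had some of the largest changes described below and the close relatives Rab5a and Rab5c went opposite ways. Rab8a, Rab5c and Rab17 rose, and Rab5a and Rab39b fell. Each is the 250 bases before the annotated start in RefSeq, on build GRCm38.p6, read 5′ to 3′ on the strand of the gene. They are chr8:72160950-72161199 on the plus strand for Rab8a, chr11:100738216-100738465 on the minus strand for Rab5c, chr1:90967668-90967917 on the minus strand for Rab17, chr17:53478984-53479233 on the plus strand for Rab5a and chrX:75578232-75578481 on the minus strand for Rab39b. Capitals mark 4 short motifs searched on both strands: the cAMP response element TGACGTCA, the E-box CACGTG, the CCAAT box CCAAT and the GC box GGGCGG.
Rab8a: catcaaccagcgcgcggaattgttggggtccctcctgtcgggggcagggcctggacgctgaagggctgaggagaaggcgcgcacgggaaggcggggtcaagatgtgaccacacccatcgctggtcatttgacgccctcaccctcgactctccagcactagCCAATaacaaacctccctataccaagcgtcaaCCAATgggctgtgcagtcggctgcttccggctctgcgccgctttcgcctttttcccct
Rab5c: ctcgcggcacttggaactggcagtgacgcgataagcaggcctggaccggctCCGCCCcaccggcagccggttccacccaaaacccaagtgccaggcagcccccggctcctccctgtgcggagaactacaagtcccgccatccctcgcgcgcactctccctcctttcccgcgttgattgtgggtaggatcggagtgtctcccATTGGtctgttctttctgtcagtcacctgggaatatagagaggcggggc
Rab17: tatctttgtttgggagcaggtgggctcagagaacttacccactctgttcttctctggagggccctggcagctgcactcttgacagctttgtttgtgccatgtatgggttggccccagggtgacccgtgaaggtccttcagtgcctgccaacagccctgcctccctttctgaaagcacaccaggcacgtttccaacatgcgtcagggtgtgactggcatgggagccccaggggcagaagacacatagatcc
Rab5a: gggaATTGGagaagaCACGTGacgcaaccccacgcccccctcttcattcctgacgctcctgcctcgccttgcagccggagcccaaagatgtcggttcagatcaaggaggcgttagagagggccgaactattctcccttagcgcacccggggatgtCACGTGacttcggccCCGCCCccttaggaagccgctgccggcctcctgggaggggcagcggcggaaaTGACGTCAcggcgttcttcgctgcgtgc
Rab39b: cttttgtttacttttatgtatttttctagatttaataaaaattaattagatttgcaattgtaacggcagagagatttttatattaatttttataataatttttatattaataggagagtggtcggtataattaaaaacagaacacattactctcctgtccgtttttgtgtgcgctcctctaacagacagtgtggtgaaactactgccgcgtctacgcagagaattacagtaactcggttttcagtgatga

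Rab8a held the CCAAT box and Rab5c the CCAAT box and the GC box. Rab5a held all 4 motifs, and no match was found in the windows of Rab17 and Rab39b. Of all 32851 promoter windows of this length 33.8% held a CCAAT box, 32.7% a GC box, 6.02% an E-box and 1.55% a cAMP response element. Promoter entries were found for 40 of the 48 Rab genes, with 50 annotated windows, of which 66.0% held a GC box, 38.0% a CCAAT box, 8.0% an E-box and 4.0% a cAMP response element. A match describes these letters and is not a measured binding site.

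The Rabs of the ER and Golgi fell or did not pass, and none rose. Of 8 tested probe sets on MG-U74A 4 fell, 50% beside 29.0% of all, and of 7 on MG-U74B 1 fell, 14.3% beside 8.87% of all. Among all tested probe sets 23.9% rose on MG-U74A and 8.59% on MG-U74B. Rab2a, which works between ER and Golgi, had 803 and 1006 intensity units in knock-out islets, against 2061 and 2034 in wild type islets. Rab1a, needed for transport of new proteins out of the ER to the Golgi, had 541 and 552 in knock-out islets, against 993 and 993 in wild type islets. In both genes each knock-out array lay below each wild type array. Rab2a fell by 1.17 ± 0.12 on the log2 scale (limma adjusted p 0.00262) and Rab1a fell by 0.83 ± 0.05 (adjusted p 0.000601). Rab18, found on the ER and on lipid droplets, had 930.1 and 979 in knock-out islets, against 1398 and 1375 in wild type islets, and fell by 0.53 ± 0.05 (adjusted p 0.00183). These 3 calls passed with any array left out. Second probe sets of Rab1a and Rab2a were below the filter, at 21.7 and 16.9 in knock-out islets against 11.2 and 13.6 in wild type islets for Rab1a, and at or below 10.2 on all arrays for Rab2a.

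Rab6a, which drives return traffic through the Golgi, gave different values in its 2 probe sets. Probe set 98927_at had 414 and 357 in knock-out islets, against 730.3 and 709 in wild type islets, and fell by 0.86 ± 0.09 on the log2 scale (limma adjusted p 0.00283). Probe set 97222_at had 464 and 582 in knock-out islets, against 448 and 439 in wild type islets, with a log2 change of 0.22 ± 0.12 (adjusted p 0.209). The second lay just above wild type on both knock-out arrays and did not pass, though it passed without knock-out replicate 1 (adjusted p 0.0175). Rab6b, the neuronal relative, did not pass on MG-U74B (log2 change -0.30 ± 0.22).

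Rab39b, a Rab of the nervous system whose loss causes X-linked intellectual disability in humans, was the 1 Rab that fell on MG-U74B. It had 86.6 and 188 in knock-out islets, against 592 and 787 in wild type islets. The arrays did not overlap, and its log2 change was -2.20 ± 0.39 (limma adjusted p 0.0256). The call was lost without knock-out replicate 1 or either wild type array, with an adjusted p of at most 0.187.

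The other Golgi Rabs did not pass. Rab33b, tied to Golgi traffic and autophagy, had 314 and 312 in knock-out islets against 451 and 335 in wild type islets in probe set 97058_f_at, whose suffix marks possible matches to several transcripts of a family. In probe set 103062_at it had 182 and 105 in knock-out islets, against 161 and 147 in wild type islets, and the log2 changes were -0.29 ± 0.16 and -0.12 ± 0.26. Rab30, a Golgi Rab, had 162 and 367 in knock-out islets against 318 and 41.7 in wild type islets in probe set 111057_at, and 222 and 47.8 in knock-out islets against 161 and 148 in wild type islets in probe set 116518_at. In each of them at least 1 pair of replicates differed by more than the genotype means did, and the log2 changes were 0.84 ± 0.88 and -0.42 ± 0.66. Rab34 had log2 changes of -0.58 ± 0.21 on MG-U74A (adjusted p 0.0808) and 0.08 ± 0.21 on MG-U74B, Rab43 of -0.16 ± 0.51 and Rab2b of 0.61 ± 0.62.

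The early endosome Rabs moved in both directions. Rab5a and Rab5c are close relatives that each direct fusion of incoming vesicles with early endosomes. Rab5a had 499 and 479 in knock-out islets, against 991 and 984 in wild type islets. Rab5c had 425 and 437 in knock-out islets, against 313 and 283 in wild type islets. So knock-out lay below wild type on every array for Rab5a and above it on every array for Rab5c. Rab5a fell by 0.98 ± 0.05 on the log2 scale (limma adjusted p 0.000496), and Rab5c rose with a log2 change of 0.50 ± 0.08 (adjusted p 0.0102). The call of Rab5c was lost without wild type replicate 2 (adjusted p 0.0712), and that of Rab5a held with any array left out. Both probe sets of Rab5b, the remaining relative, were below the filter.

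Rab21, which guides internalised integrins, had 281 and 194 in knock-out islets, against 408 and 397 in wild type islets. It fell by 0.72 ± 0.19 on the log2 scale (limma adjusted p 0.0343), and the call was lost without either wild type array (adjusted p at most 0.134). Rab31 did not pass (log2 change 0.34 ± 0.32). Rab22a, a Rab of early and recycling endosomes, was read by 3 tested probe sets on MG-U74B, and none passed. Probe set 111477_at had 631 and 584 in knock-out islets, against 1153 and 884 in wild type islets, with a log2 change of -0.71 ± 0.18 (adjusted p 0.0560). Probe set 113872_at had 499 and 384 in knock-out islets against 489 and 482 in wild type islets, and 116445_at had 192 and -106 in knock-out islets against 139 and 166 in wild type islets. Knock-out was below wild type on every array only in the first of these, and the log2 changes of the others were -0.14 ± 0.20 and -1.26 ± 1.08.

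Recycling Rabs, which return receptors and membrane from endosomes to the cell surface, fell on MG-U74A in 6 of 9 tested probe sets. That is 66.7% beside 29.0% of all, and none rose there, beside 23.9% of all. On MG-U74B 2 of 7 rose, beside 8.59% of all, and none fell, beside 8.87% of all. Without Rab17 1 of 6 rose. Rab4a, of the fast recycling route, had 38.1 and 90.9 in knock-out islets, against 234 and 198 in wild type islets. Its relative Rab4b had 535 and 432 in knock-out islets, against 903 and 901 in wild type islets. Both were below wild type on each knock-out array. Rab4a fell by 1.49 ± 0.34 on the log2 scale (limma adjusted p 0.0257) and Rab4b fell by 0.87 ± 0.11 (adjusted p 0.00521). Rab4b passed with any array left out, and Rab4a did not pass without wild type replicate 1 (adjusted p 0.118) or wild type replicate 2 (adjusted p 0.0907).

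Rab11a, of the slow route through the recycling endosome, fell in both of its probe sets. Probe set 92854_at had 1361.5 and 1314 in knock-out islets, against 1881 and 1883 in wild type islets. Probe set 96238_at had 68.3 and 82.8 in knock-out islets, against 228 and 139 in wild type islets. The arrays did not overlap in either. The log2 changes were -0.49 ± 0.04 (limma adjusted p 0.00140) and -1.02 ± 0.27 (adjusted p 0.0366). The second call was lost without either knock-out array or wild type replicate 1, with an adjusted p of at most 0.146. Its relatives did not pass: Rab11b had log2 changes of -0.29 ± 0.20 on MG-U74A (adjusted p 0.277) and -0.61 ± 0.17 on MG-U74B (adjusted p 0.0739), and Rab25, a form of epithelia, had -0.43 ± 0.15 (adjusted p 0.0724).

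Rab14, which moves cargo between Golgi and endosomes, was read by 5 tested probe sets. On MG-U74A probe set 97301_at had 889.5 and 860.5 in knock-out islets, against 1149 and 1174 in wild type islets. Probe set 95686_at had 95.6 and 80.5 in knock-out islets, against 176 and 174 in wild type islets, and 104442_at had 133 and 91.6 in knock-out islets against 176 and 159 in wild type islets. All 3 lay lower in knock-out islets on every array. The first fell by 0.40 ± 0.04 on the log2 scale (limma adjusted p 0.00345), the second fell by 0.82 ± 0.15 (adjusted p 0.0127), and 104442_at did not pass (-0.50 ± 0.20, adjusted p 0.107). The call of 95686_at was lost without either wild type array (adjusted p at most 0.0957). On MG-U74B neither passed: 108294_at had 342 and 414 in knock-out islets against 228 and 216 in wild type islets (log2 change 0.70 ± 0.23, adjusted p 0.105), and 105420_at had 128 and 96.8 in knock-out islets against 147 and 155 in wild type islets (-0.37 ± 0.36). So 4 of the 5 lay lower in knock-out islets on every array and 1 lay higher.

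Among the recycling Rabs that rose, Rab17 is a Rab of polarised epithelia that serves transport across the cell. On MG-U74B it had 589 and 371 in knock-out islets, against 6.60 and -74.2 in wild type islets. Its mean was 479.7 ± 154 in knock-out islets and -33.8 ± 57.1 in wild type islets (SD, n = 2 each), and no ratio is given because wild type was near or below 0. It passed the filter only through the knock-out arrays, so its call is no support for a difference, and its log2 change of 4.13 depends on the constant added. The other Rab17 probe set, on MG-U74A, was not tested and had 48.3 and 18.6 in knock-out islets against -2.50 and 31.7 in wild type islets, so the genotypes overlapped there. The call on MG-U74B was lost without knock-out replicate 1 or either wild type array (adjusted p at most 0.105).

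Rab35, which returns cargo to the cell surface and helps cell division end, rose in 1 of its 2 tested probe sets. Probe set 107608_at had 1565 and 1394 in knock-out islets, against 968 and 920.0 in wild type islets, with a log2 change of 0.63 ± 0.12 (limma adjusted p 0.0312), and did not pass with any array left out (adjusted p 0.0578 to 0.185). Probe set 164680_s_at had 464 and 740.4 in knock-out islets, against 477 and 605 in wild type islets, which overlap (0.12 ± 0.27). Another one, on MG-U74A, was below 0 on all arrays. Rab15, a Rab of neuronal and secretory cells, had 777 and 766 in knock-out islets against 536 and 499 in wild type islets, and did not pass (0.56 ± 0.14, adjusted p 0.0588) although its arrays did not overlap.

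**Figure D3:**
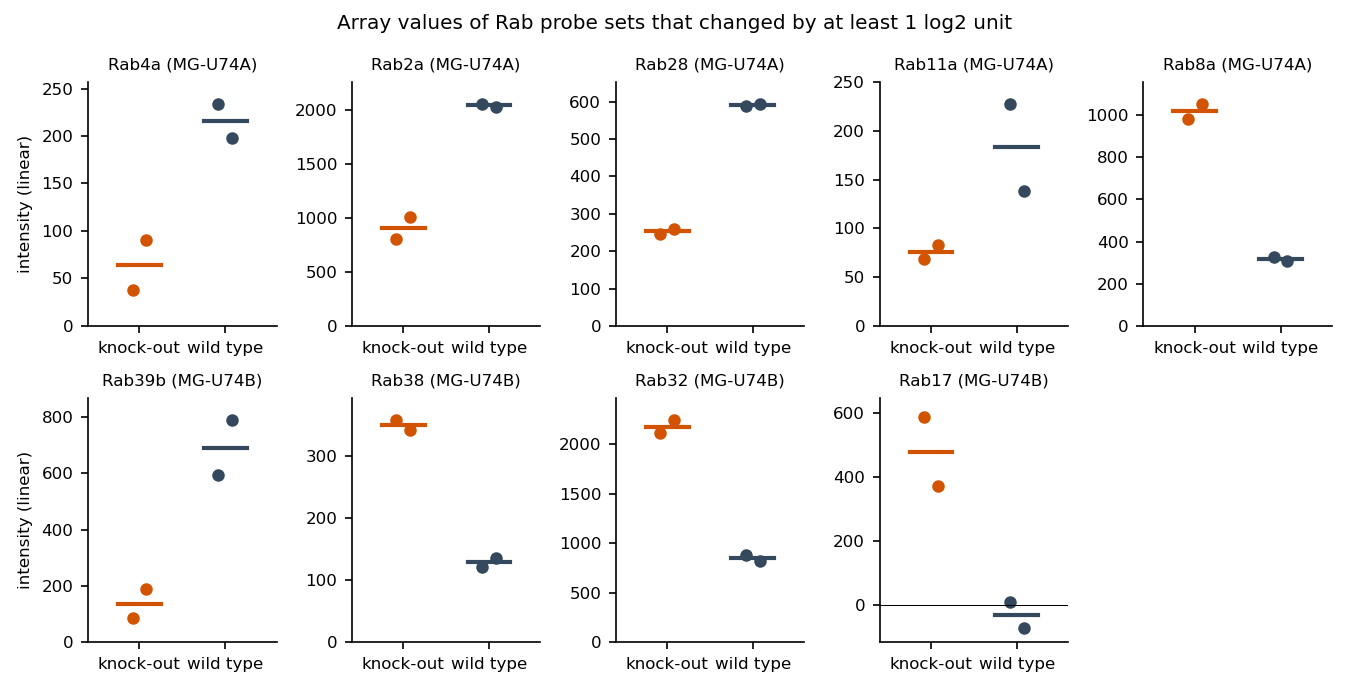
Intensity (linear scale) on each array for the 9 Rab probe sets that passed, did not overlap between the genotypes and changed by at least 1 log2 unit. Knock-out is at left and wild type at right. Points are arrays and bars are means of 2. Rab17, which passed the filter only through its knock-out arrays, sits at 6.60 and -74.2 in wild type.

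Rabs of late endosomes, lysosomes and related organelles rose in 2 of 3 tested probe sets on MG-U74A, beside 23.9% of all, and 1 fell. The fall, beside 29.0% of all, and 1 of these rises came from the 2 probe sets of Rab7. On MG-U74B 2 of 4 rose, beside 8.59% of all, and none fell, beside 8.87%. Rab32 and its relative Rab38 build lysosome-related organelles such as melanosomes. Rab32 had 2111 and 2242 in knock-out islets, against 878 and 821 in wild type islets. Rab38 had 358 and 342 in knock-out islets, against 122 and 137 in wild type islets. Each knock-out array lay above each wild type array in both genes. Rab32 rose with a log2 change of 1.33 ± 0.11 (limma adjusted p 0.00688) and Rab38 with 1.28 ± 0.26 (adjusted p 0.0357). Rab32 kept its call without either knock-out array and lost it without either wild type array (adjusted p at most 0.104), and Rab38 lost its call with any array left out (adjusted p 0.0977 to 0.169).

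Rab7, which governs fusion of late endosomes with lysosomes, had 2 probe sets that went opposite ways. Probe set 95785_s_at had 825 and 799 in knock-out islets, against 449 and 414 in wild type islets, and rose with a log2 change of 0.88 ± 0.07 (limma adjusted p 0.00118). Probe set 99587_at had 1424 and 1514 in knock-out islets, against 1801.5 and 1734 in wild type islets, and fell by 0.26 ± 0.05 (adjusted p 0.0147). The arrays did not overlap in either, so no direction is given for Rab7 as a gene. The suffix of the first marks probes that may match several transcripts. The rise held with any array left out, and the fall was lost without either wild type array (adjusted p at most 0.112).

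Rab9, which returns mannose phosphate receptors to the Golgi, had 567 and 562 in knock-out islets, against 467 and 461 in wild type islets. It rose with a log2 change of 0.27 ± 0.05 (limma adjusted p 0.0183), and the call was lost without either wild type array (adjusted p at most 0.135). Rab7b had 289 and 263 in knock-out islets, against 114 and 132 in wild type islets, and did not pass (1.03 ± 0.29, adjusted p 0.0759). Rab29, a Rab that works with the kinase Lrrk2, did not pass either (0.35 ± 0.14).

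Among the Rabs of delivery to the plasma membrane, Rab8a rose. Rab8a steers vesicles to the cell surface and to the base of the cilium. It had 981 and 1054 in knock-out islets, against 327 and 308 in wild type islets. Its log2 change was 1.61 ± 0.07 (limma adjusted p 0.000342), and it was the 1 Rab on MG-U74A that rose by at least 1 log2 unit. It passed with any array left out (adjusted p at most 0.00608). Rab8b, its relative, did not pass on MG-U74A (0.07 ± 0.14) and was not tested on MG-U74B.

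Rab10, which brings glucose transporters to the surface of fat cells, had 596 and 573 in knock-out islets against 901 and 879 in wild type islets in probe set 160149_at. In probe set 101933_at it had 243 and 156 in knock-out islets, against 316 and 324 in wild type islets. Both lay lower in knock-out islets on each array. The first fell by 0.59 ± 0.05 on the log2 scale (limma adjusted p 0.00176) and held with any array left out, while the second did not pass (-0.65 ± 0.21, adjusted p 0.0667).

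Rab26, a Rab of secretory granules known from exocrine cells, could not be called. Its knock-out arrays read 1194 and 221, against 1536 and 1469.5 in wild type islets, so the knock-out replicates differed more from each other than the first did from wild type. The log2 change was -1.48 ± 0.75 (limma adjusted p 0.234). Without knock-out replicate 1 it was -2.63 and passed (adjusted p 0.0497), and without knock-out replicate 2 it was -0.33. Rab13, of epithelial tight junctions, did not pass (0.01 ± 0.48).

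The remaining Rabs, of cilia, autophagy and protein turnover, fell in 3 of 3 tested probe sets on MG-U74A, beside 29.0% of all. Rab28, a Rab of the cilium needed by photoreceptors, had 246 and 261 in knock-out islets, against 588 and 595 in wild type islets. It fell by 1.15 ± 0.07 on the log2 scale (limma adjusted p 0.000725) and held with any array left out. Rab12, which takes the transferrin receptor to degradation, had 455 and 468 in knock-out islets, against 664 and 659.6 in wild type islets, and fell by 0.50 ± 0.05 (adjusted p 0.00326). Rab24, linked to autophagy, had 388 and 471 in knock-out islets, against 598 and 617 in wild type islets, and fell by 0.48 ± 0.11 (adjusted p 0.0242). Rab12 held with any array left out, and Rab24 was lost without either wild type array (adjusted p at most 0.119). Rab40c, part of a ubiquitin ligase, did not pass: probe set 162750_at had 592 and 638 in knock-out islets against 689 and 656 in wild type islets, and 109111_at had 218 and 205 in knock-out islets against 169 and 177 in wild type islets, with log2 changes of -0.12 ± 0.14 and 0.26 ± 0.28.

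**Figure D4:**
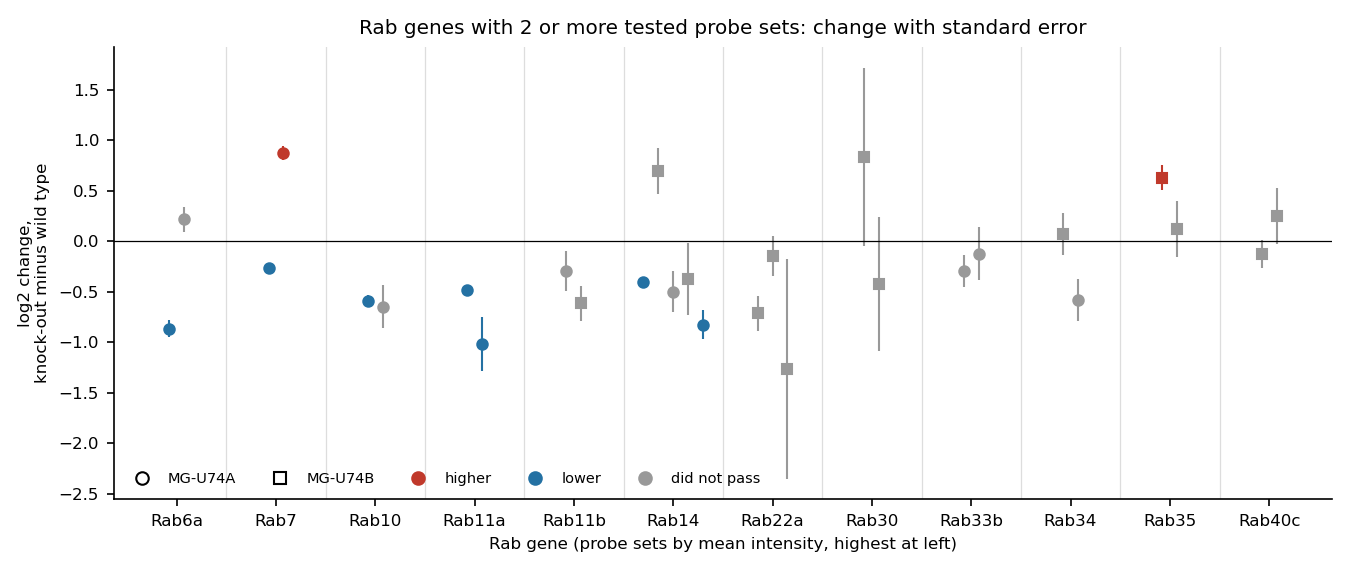
Log2 change, knock-out minus wild type, with its standard error, of each tested probe set of the 12 Rab genes with 2 or more of them. Circles are MG-U74A and squares MG-U74B, and probe sets run from the highest mean at left. Rab7 shows a red point at 0.88 beside a blue point at -0.26, and Rab11a shows 2 blue points.

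Of 7 tested genes on MG-U74A from a list of GDP dissociation inhibitors, prenylation enzymes and Rab-binding membrane proteins, 5 fell, 71.4% beside 29.0% of all tested probe sets, and none rose, with a median log2 change of -0.54 beside -0.09 for all tested probe sets, and 4 to 5 fell with an array left out. In this list and those of activators, inactivators, and effectors and tethers below, each gene was read by its brightest probe set on that array type. The shares of all count every tested probe set, so the 2 units differ. Rabac1, an acceptor that helps Rabs onto membranes, had 3190.3 and 3149 in knock-out islets, against 5612 and 5633 in wild type islets, and fell by 0.82 ± 0.03 on the log2 scale (limma adjusted p 0.000248). All 5 were membrane proteins, and the other 4 were the Yip family genes Yipf1, Yipf3, Yipf4 and Yipf5, found at the Golgi. Among them Yipf4 had 301 and 234 in knock-out islets, against 726 and 729 in wild type islets, and fell by 1.37 ± 0.13 (adjusted p 0.00224). The GDP dissociation inhibitor Gdi2 and the prenylation enzyme subunit Rabggtb, the remaining 2 genes, did not pass. Gdi2 had 1736 and 2042 in knock-out islets, against 1575 and 1588 in wild type islets (0.25 ± 0.09, adjusted p 0.0776). Rabggtb had 405 and 542 in knock-out islets, against 203 and 359 in wild type islets (0.74 ± 0.30, adjusted p 0.112). Both lay higher in knock-out islets on each array. On MG-U74B 1 of 4 fell, 25% beside 8.87% of all, and none rose. The fall was that of Yipf6, with 106 and 163 in knock-out islets against 594 and 567 in wild type islets (-1.95 ± 0.27, limma adjusted p 0.0156). Its call was lost without knock-out replicate 1 or either wild type array.

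Of 14 tested Rab activators on MG-U74A 7 fell, 50% beside 29.0% of all, and 1 rose, 7.1% beside 23.9%. Their median log2 change was -0.33, beside -0.09 for all tested probe sets. The count of falls depended on single arrays and was 1 to 8 with an array left out. Dennd4c, an activator of Rab10, had 46.1 and 62.5 in knock-out islets, against 314 and 302 in wild type islets. It was lower on each knock-out array, and it passed the filter only through the wild type arrays, so its call is no support for a difference. Without it 6 of 13 fell. The others that fell were Rab3ip, Sbf2 and the TRAPP complex subunits Trappc1, Trappc2l, Trappc3 and Trappc10, and Rin2, an activator of Rab5, rose. The MG-U74B probe sets of Sbf2 (-0.33 ± 0.27), Trappc3 (0.88 ± 0.66) and Rab3ip (-2.15 ± 0.72) did not pass. That of Rab3ip reached the filter only through the wild type arrays. On MG-U74B 1 of 24 rose, 4.2% beside 8.59% of all, and 2 fell, 8.3% beside 8.87%. The median log2 change of the activators there was 0.11, beside 0.11 for all tested probe sets. Dennd4a, the relative of Dennd4c, had 806 and 672 in knock-out islets, against 289 and 363 in wild type islets, and rose with a log2 change of 1.13 ± 0.20 (limma adjusted p 0.0268). Madd, an activator of the Rab3 and Rab27 groups, had 797 and 864 in knock-out islets, against 1385 and 2075 in wild type islets, and fell by 1.01 ± 0.22 (adjusted p 0.0399). Neither passed with any array left out.

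The inactivators gave calls in both directions. On MG-U74A 2 of 9 fell, 22.2% beside 29.0% of all, and none rose, beside 23.9% (median log2 change -0.22). They were Tbc1d1, which acts on Rabs of glucose transporter traffic in muscle, and Tbc1d24, which had 33.0 and 26.4 in knock-out islets, against 115 and 100.1 in wild type islets. Tbc1d24 passed the filter only through the wild type arrays, and without it 1 of 8 fell. On MG-U74B 4 of 20 rose, 20% beside 8.59% of all, and 3 fell, 15% beside 8.87%, with a median of 0.20. Tbc1d10c, an inactivator of lymphocytes and other blood cells, had 810 and 977 in knock-out islets, against -17.4 and -16.8 in wild type islets. Sgsm3 had 2.40 and -12.9 in knock-out islets, against 358 and 133 in wild type islets. Each of these 2 passed the filter only through the genotype where it is high, so neither call is support for a difference, and without them 3 of 18 rose and 2 fell. Sgsm1 had 152 and 408 in knock-out islets, against 1387 and 1082 in wild type islets (-2.17 ± 0.45, limma adjusted p 0.0376). Tbc1d16 had 217 and 531 in knock-out islets, against 1337.5 and 1269 in wild type islets (-1.85 ± 0.41, adjusted p 0.0430). Both were lower on each knock-out array. Tbc1d16 lost its call without either wild type array (adjusted p at most 0.218), and Sgsm1 without those or knock-out replicate 1 (at most 0.215). The other 3 that rose, Tbc1d2b, Tbc1d4 and Tbc1d17, lost their calls with any array left out.

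Of 16 tested effectors and tethers on MG-U74A 7 fell, 43.8% beside 29.0% of all, and 1 rose, 6.25% beside 23.9%. Their median log2 change was -0.58, with 4 to 7 falls with an array left out. Sytl4 (granuphilin), the Rab effector that docks insulin granules at the plasma membrane, had 249 and 248 in knock-out islets, against 1064.5 and 1100.0 in wild type islets. Gorasp2, a Golgi stacking protein, had 959.6 and 1020.3 in knock-out islets, against 2841 and 2861 in wild type islets. Both were lower on each knock-out array. Sytl4 fell by 2.02 ± 0.06 on the log2 scale (limma adjusted p 0.000169) and Gorasp2 fell by 1.50 ± 0.05 (adjusted p 0.000191), and both held with any array left out. This probe set of Gorasp2 is of the kind that may match several transcripts of a family. Another Gorasp2 probe set, on MG-U74B, had 1506 and 1194 in knock-out islets, against 1137 and 1270 in wild type islets. Its arrays overlapped and it did not pass (0.16 ± 0.16, limma adjusted p 0.514), so no direction is given for Gorasp2 as a gene. Myo5b, a motor that carries Rab11 vesicles, had 14.5 and -6.40 in knock-out islets, against 104 and 139 in wild type islets. Rufy1, an effector of Rab4 and Rab14, had 26.3 and 79.2 in knock-out islets, against 239 and 260.0 in wild type islets. Both passed the filter only through the wild type arrays, so their calls are no support for a difference. Without the 4 genes of this list that passed in that way, 5 of 12 fell. Also lower were Uso1 (log2 change -1.23 ± 0.09, limma adjusted p 0.00118), Golga5 (-0.90 ± 0.11, adjusted p 0.00490) and Rab11fip5 (-0.65 ± 0.16, adjusted p 0.0289). The gene that rose was Vps16 (0.75 ± 0.14, limma adjusted p 0.0158).

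On MG-U74B 2 of 32 effectors and tethers fell, 6.25% beside 8.87% of all, and 1 rose, 3.1% beside 8.59%. Their median log2 change was -0.13, beside 0.11 for all tested probe sets. Hook1, a linker of endosomes to microtubule motors, had 268 and 296 in knock-out islets, against 2210 and 2204 in wild type islets, and fell by 2.86 ± 0.13 (limma adjusted p 0.00530, and at most 0.104 without either wild type array, where the call was lost). Rbsn (rabenosyn), an effector of Rab4 and Rab5, had -63.8 and -12.3 in knock-out islets, against 304 and 161 in wild type islets. It passed the filter only through the wild type arrays, so its call is no support for a difference, and 1 of 29 fell without the 3 genes that passed through 1 genotype. Rilp, which links Rab7 to the dynein motor, rose, and lost its call with any array left out (adjusted p at most 0.172).

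**Figure D5:**
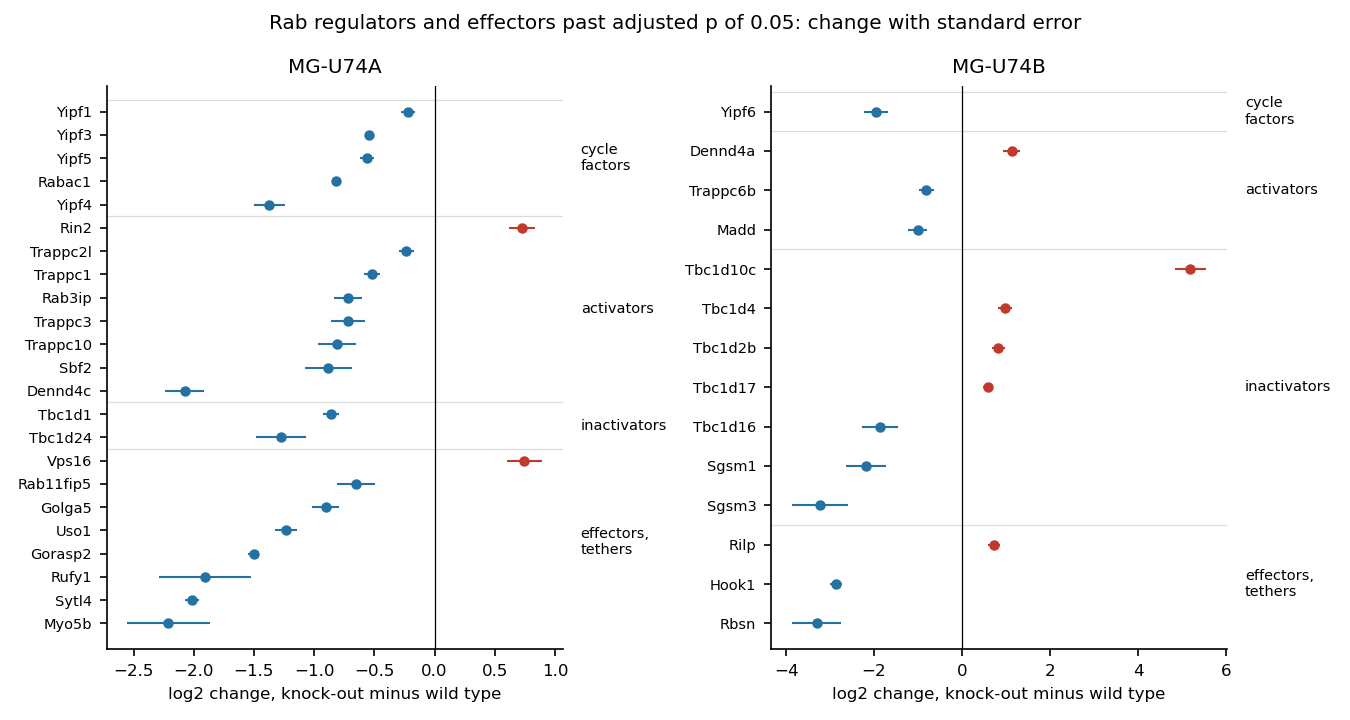
Log2 change, knock-out minus wild type, with its standard error, of the 23 Rab regulators and effectors that passed on MG-U74A (left) and the 14 that passed on MG-U74B (right), grouped by the kind of protein. Red points rose and blue points fell. On MG-U74A 21 of the points are blue, and on MG-U74B 8 are blue. Dennd4c, Tbc1d24, Myo5b, Rufy1, Sgsm3, Tbc1d10c and Rbsn passed the filter through 1 genotype only, and their values depend on the constant added.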

How the data were processed

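The deposited files hold linear intensities, 1 per probe set and array, which the authors had scaled to a like trimmed mean on every array (from the values). The software that made them: not given in the sources used here. Intensities below 0 occur on every array, in 18.4% to 26.7% of values. Here each array was rescaled to the common mean without its top and bottom 2%, negative values became 0, and 10% of that mean was added before log2. Probe sets under 25% of it, and 66 control probe sets per type, were not tested. The genotypes were compared within each array type in limma 3.58.1 (R 4.3.3; lmFit, then eBayes with a variance trend), two-sided, with Benjamini-Hochberg adjustment over all tested probe sets and a threshold of 0.05. The fit was tested on simulated data. Symbols came from the platform annotation, and promoters from RefSeq (GRCm38.p6).

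Fully described were Rab probe sets that passed, did not overlap and changed by at least 1 log2 unit, Rab genes with several tested probe sets, and the 5 Rab genes per type with the highest mean. Other Rab probe sets past the threshold were given too. Regulators past the threshold were named with their values from 1 log2 unit on, at most 4 per list and direction. Rabac1, Gdi2, Rabggtb, Tbc1d2b, Tbc1d4, Tbc1d17, Rilp, Uso1, Golga5, Rab11fip5 and Vps16 were added after their values were seen. The members and all lists were chosen with earlier results of these data known. Alternatives were another constant, filter or normalization, no variance trend, a replicate block, each array left out, the median over a gene's probe sets and, added after seeing the data, scaling to a common median. Deviations of same-numbered replicates correlated at 0.02 on MG-U74A and 0.03 on MG-U74B, so the numbers were not taken as pairs. The number of arrays limits the precision. The targeted gene is not reported here.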

Additional observations from a re-analysis of the deposited data

How the results depend on the processing

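On MG-U74A no count of calls moved by over 1.5 times and no Rab median changed direction or moved by more than the spread between replicates under another constant, filter, normalization, variance model, replicate block or gene summary. There the low filter, when removed, ended the calls of Rab4a, Rab11a 96238_at, Rab21 and Rab24, no variance trend those of Rab21 and Rab7 99587_at, and the replicate block, whose numbers may pair nothing, those of Rab9 (adjusted p 0.0550) and Rab11a 96238_at (0.0535). With each array left out, the falls and rises on MG-U74A were 1082 to 2401 and 1182 to 1729 over all probe sets and 11 to 20 and 2 to 5 over Rab probe sets, with a Rab median of -0.56 to -0.42. On MG-U74B the same ranges were 0 to 399 and 0 to 139 over all, and 0 to 1 and 0 to 2 over Rab probe sets, with a Rab median of -0.070 to 0.30, which reversed to -0.070 without knock-out replicate 1 and to -0.01 without wild type replicate 2. These fits assume that a lone array varies like the other genotype. Without the filter MG-U74B gave 332 rises and 432 falls over all and 2 and 0 over Rab probe sets, where 8 and 3 had an unadjusted p under 0.05. Without the variance trend it gave 295 and 343 over all and 0 Rab falls (3 unadjusted). Rab falls on MG-U74B were 2, with Rab22a 111477_at added, under the stricter filter (adjusted p 0.0495), quantile normalization (0.0426), the replicate block (0.0494) and a common median (0.0430), and the Rab median was -0.0086 under quantile normalization. Single probe sets whose log2 change reversed, with their range over the left-out arrays, were Rab33b 103062_at (0.21 without knock-out replicate 2, -0.45 to 0.21), Rab22a 113872_at (0.037, -0.32 to 0.037) and 116445_at (0.29, -2.82 to 0.29), Rab30 116518_at (0.46, -1.30 to 0.46) and Rab35 164680_s_at (-0.20, -0.20 to 0.45), all without that array. Rab35 164680_s_at was also -0.042 without wild type replicate 1, and Rab30 111057_at was -0.34 without wild type replicate 2 (-0.34 to 2.02). The cause of these shifts was not tested. Over all tested probe sets the median change (-0.09 for MG-U74A, 0.11 for MG-U74B) was 0 on both types without the filter, and -0.04 and 0.04 with a common median. Low intensities, near or below 0, limit what Rab17 and the 8 untested genes can show.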
